A study of Mus musculus with 6 samples.

Results

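The stefin genes Stfa1, Stfa2, Stfa2l1, Stfa3, Cstdc4 and BC100530 were followed in the neutrophils of 6 single-cell RNA sequencing libraries of mouse cells. They are 6 of the 32285 genes in the deposited counts. The 6 genes were chosen by their measured UMIs in the neutrophils of these same libraries, so their presence in neutrophils and their differences between libraries are given as a description, with no test. A UMI is a molecular identifier that marks 1 captured RNA molecule. Of the 6 symbols, 5 were found as written, and BC100530 was found by its gene ID under the symbol Cstdc5.

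The study asked how 2 drugs that alter glycans act on ovarian tumors with and without an antibody against PD-L1, the ligand that restrains T cells through PD-1. Each group was 1 library from 1 mouse: control, 2DG (2-deoxy-D-glucose), 2FF (a fluorinated fucose analog, labelled 2F-Peracetyl-Fucose), anti-PD-L1, and each drug combined with the antibody. According to the methods, KPCA mouse ovarian cancer cells were placed in the ovarian bursa of female C57BL/6 mice, the tumor cells of the 2FF groups met 2FF before they were injected, and control mice received solvent and control rat IgG. The methods give 1 age range, of young mice in weeks, for all mice of these tumor models. The labels name lymph node as the tissue of all 6 libraries and the series text mentions young and aged mice. These differences from the methods could not be settled here. The control and anti-PD-L1 libraries served the 2DG and the 2FF comparisons alike, so those comparisons share a sample. With 1 library per group, the effect of a treatment cannot be told apart from what sets 1 mouse, or 1 preparation, apart from another, and no p-value is given.

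Stefins are the type 1 cystatins, small inhibitors without a signal peptide that act mainly inside the cell. They bind papain-like cysteine proteases such as the cathepsins and block their active site. Mice carry an enlarged cluster of stefin A genes where humans carry CSTA alone, and several of its copies are known from neutrophils and other myeloid cells of the bone marrow.

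All 6 genes lay on chromosome 16 of mm10, within 298.582 kb (chr16:36156811-36455392), with 3 on the plus and 3 on the minus strand. Each had 3 exons in the GENCODE M21 annotation. With 4 further stefin A copies between or beside them (Csta1, Csta2, Csta3 and Cstdc6), the cluster spanned 335.447 kb. Coding sequences of the 15 pairs of members were 80.6% to 98.0% identical. The closest pairs were Stfa1 with BC100530, which matched at 288 of 294 aligned bases, and Stfa2 with Stfa2l1, which matched at 301 of 312. Reads can therefore be hard to assign: of the 90-base windows of BC100530 transcripts 12.0% also occurred in another gene of the cluster, of those of Stfa1 6.48%, of Cstdc4 2.69%, of Stfa2l1 2.42% and of Stfa2 2.09%, while none of Stfa3 did.

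The bases just before the 6 RefSeq starts are shown because all 6 genes held the same run of 12 bases there, ACCTTTAAAACC, here in capitals with 9 bases on each side (5′ to 3′ on the strand of the gene, RefSeq, GRCm38.p6, the assembly that mm10 names).
Stfa1: ctttcggatACCTTTAAAACCctgagtctc
Stfa2: cttacagaaACCTTTAAAACCctgagtctc
Stfa2l1: tttacagaaACCTTTAAAACCctgagtctc
Stfa3: ttacagataACCTTTAAAACCccgagtctc
Cstdc4: tttacagatACCTTTAAAACCctgactctt
BC100530: tttacagatACCTTTAAAACCccgagtctc

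The run ended 21 to 25 bases before the start in 5 members and 1 base before it in BC100530. In BC100530 the bases shown after the run therefore lie past its RefSeq start. For Stfa1, Stfa2 and BC100530 the 100 bases before the RefSeq start overlap an exon of the GENCODE M21 annotation, so they may be transcribed. The run was picked as the longest one that all 6 members share within 100 bases before the start. Its presence in them was thus fixed in advance. Searched on both strands of 32851 RefSeq promoters (250 bases before the start), the run was present in 11, which is 0.0335% of them. These 11 were the promoters of the 6 members, of Csta3 and Cstdc3, and of Cdc42ep4, Gm39539 and Gm7260. Motifs of 2 factors known from myeloid genes, which were not picked from the members, were each found in some of them. The PU.1 type motif GAGGAAG was found for Stfa1, Cstdc4 and BC100530 (10.6% of all promoters hold it), and the C/EBP type motif TTGCNNAA for Stfa1 and BC100530 (9.56%). These are matches of letters and say nothing of binding.

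Neutrophils were cells with UMIs of at least 3 of 6 markers (S100a8, S100a9, Csf3r, Cxcr2, G0s2 and Retnlg) that did not also meet the marker rule of another class. The 6 libraries held 61859753 to 73885214 UMIs and 7703 to 9222 cells with at least 250 genes and at most 5% mitochondrial UMIs. Among these were 2865 neutrophils in the control library (31.6% of cells), against 308 in 2DG, 432 in 2FF, 249 in anti-PD-L1, and 242 (with 2DG) and 320 (with 2FF) in the combinations (2.68% to 4.68%). The control neutrophils were also the deepest, with a median of 3742 UMIs against 2499 to 3153. All 6 neutrophil markers were detected in every library, and their summed level ran from 38264 CPM in 2FF to 89386 CPM in 2DG, with the control library between them at 52552 (CPM is UMIs of a gene per 1000000 UMIs of the class in that library). Markers of other classes were scarce in these cells. The 5 monocyte markers summed to 131 CPM in control and to 231 to 395 CPM in the treated libraries, the 5 T cell markers to 8.09 CPM and to 17.6 to 60.5 CPM, and the 4 macrophage markers to 40.8 CPM and to 17.3 to 52.0 CPM. Any pair of libraries shared 16 to 34 cell barcodes, and at most 1 of them marked a neutrophil in both.

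The stefin genes together gave 26988 UMIs in control neutrophils, 1200 in 2DG, 866 in 2FF, 789 in anti-PD-L1, 737 in 2DG plus anti-PD-L1 and 934 in 2FF plus anti-PD-L1. Cstdc4 and Stfa2l1 made up 83.7% to 95.4% of these. The summed level was 1966 CPM in control (95% Poisson interval 1943 to 1990). In the treated libraries it was 989 CPM in 2DG (934 to 1046), 672 in 2FF (628 to 719), 947 in anti-PD-L1 (882 to 1016), 946 in 2DG plus anti-PD-L1 (879 to 1016) and 749 in 2FF plus anti-PD-L1 (701 to 798). The control library thus lay above all 5 treated ones, and the intervals of 2DG, anti-PD-L1 and 2DG plus anti-PD-L1 overlapped. These intervals, like all below, cover counting error only and not the spread between mice, which 1 library per group cannot show. Those of UMI counts and ratios also treat UMIs as independent, so they are too narrow where few cells hold many of them.

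Cstdc4, which GENCODE M21 still lists as Gm5483, was the member with the most UMIs in every library. Its level was 1175 CPM in control, 498 in 2DG, 351 in 2FF, 461 in anti-PD-L1, 518 in 2DG plus anti-PD-L1 and 393 in 2FF plus anti-PD-L1. Control was the highest and 2FF the lowest, and the Poisson intervals of the treated libraries without 2FF overlapped. Stfa2l1, the near copy of Stfa2, came second everywhere. It was at 636 CPM in control, 329 in 2DG, 250 in 2FF, 333 in anti-PD-L1, 318 in 2DG plus anti-PD-L1 and 321 in 2FF plus anti-PD-L1. Here the intervals of 4 of the 5 treated libraries overlapped, and 2FF lay below them. There were 1.85 Cstdc4 UMIs for each Stfa2l1 UMI in control (95% interval 1.80 to 1.89), against 1.22 (1.07 to 1.40) in 2FF plus anti-PD-L1 and 1.39 to 1.63 in the other 4 libraries. UMIs were counted from the 3′ end and were not divided by length.

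The 4 other members were far lower and followed no common order. Stfa1 was at 57.9 CPM in control, 29.7 in 2DG, 30.3 in 2FF, 87.6 in anti-PD-L1, 64.2 in 2DG plus anti-PD-L1 and 24.0 in 2FF plus anti-PD-L1. It was highest with anti-PD-L1, not in control. Stfa2 was at 38.0, 72.5, 24.1, 34.8, 32.1 and 9.62 CPM in the same order, with its highest value in 2DG. BC100530 was at 44.7, 35.4, 10.9, 22.8, 11.5 and 0.802 CPM, the last resting on a single UMI. Stfa3 was at 14.7, 23.9, 6.21, 8.40 and 1.28 CPM and had no UMI in the 320 neutrophils of 2FF plus anti-PD-L1, which allows up to 2.40 CPM (3 UMIs). In 2FF plus anti-PD-L1 all 4 of these genes had their lowest value.

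**Figure D1:**
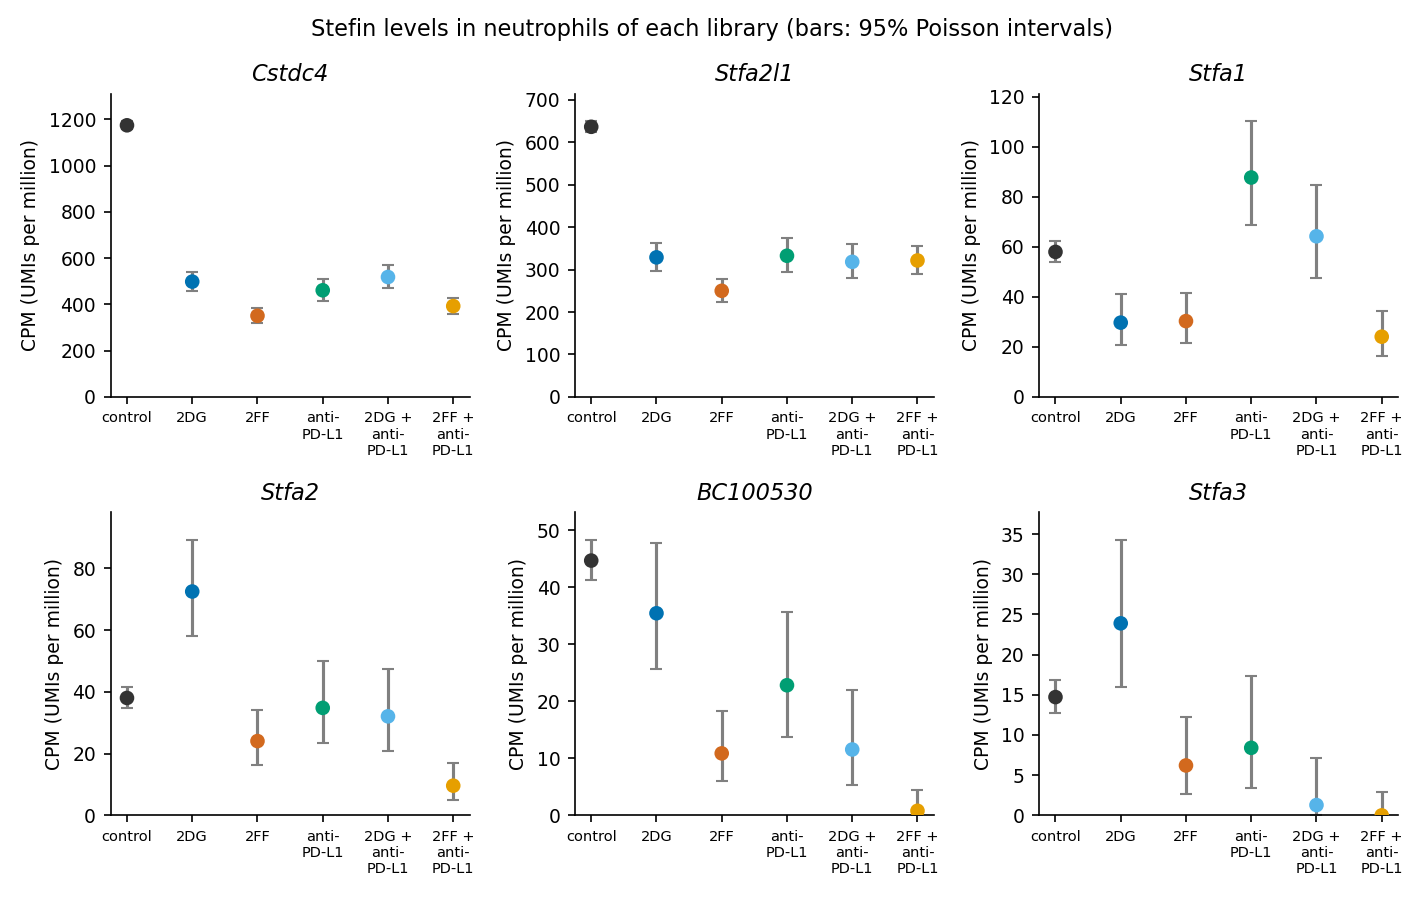
Level of each stefin gene in neutrophils (CPM, linear axes that start at 0 and differ between panels) in the 6 libraries, 1 mouse each; bars are 95% Poisson intervals. Cstdc4 and Stfa2l1 are highest in control, Stfa1 in anti-PD-L1, and Stfa2 and Stfa3 in 2DG.

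The low members rested on very few cells. In control neutrophils the 10 cells with the most UMIs of a gene held 63.6% of all Stfa2 UMIs, 73.8% of Stfa3, 63.5% of BC100530 and 39.6% of Stfa1, against 4.70% of Cstdc4 and 5.06% of Stfa2l1. A single control cell carried 82 UMIs of Stfa2 and another 83 of BC100530, while only 89 and 85 of the 2865 cells had any. In the treated libraries 10 cells or fewer held between 97.7% and all of the UMIs of each of these 4 genes wherever it was detected. In 2DG, 48 of the 88 Stfa2 UMIs came from 1 cell. The order of the libraries for Stfa1, Stfa2, Stfa3 and BC100530 is therefore the order of a handful of cells, and the Poisson intervals, which treat UMIs as independent, are too narrow for them. Cstdc4 and Stfa2l1 were uneven in 2DG too, where 10 cells held 57.9% and 38.8% of their UMIs and 50.8% of the summed ones. The 4% of neutrophils with the most stefin UMIs held 54.4% of them in 2DG, 49.4% in 2FF, 47.5% in anti-PD-L1 and 47.1% in 2DG plus anti-PD-L1. They held 33.9% in 2FF plus anti-PD-L1 and 32.0% in control. The intervals of the sum are thus too narrow in such libraries as well, and in 2DG so are those of these 2 genes.

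The control library had both more neutrophils with a stefin UMI and more UMIs in each of them. A UMI of any member was found in 61.3% of control neutrophils (Clopper-Pearson interval 59.5 to 63.1), 38.0% in 2DG (32.5 to 43.7), 31.5% in 2FF (27.1 to 36.1), 38.2% in anti-PD-L1 (32.1 to 44.5), 34.7% in 2DG plus anti-PD-L1 (28.7 to 41.1) and 35.9% in 2FF plus anti-PD-L1 (30.7 to 41.5). With each cell thinned to 500 UMIs, a depth that every neutrophil reached, the shares were 36.9% in control and 16.5% to 21.1% in the treated libraries. Cells with a UMI had a median of 8 stefin UMIs in control and of 3 to 5 in the treated libraries.

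Stefin UMIs were unevenly spread within each library too. The 5% of neutrophils with the most stefin UMIs, rounded up to whole cells, held 37.0% of them in control, 60.1% in 2DG, 56.2% in 2FF, 54.9% in anti-PD-L1, 55.0% in 2DG plus anti-PD-L1 and 39.9% in 2FF plus anti-PD-L1. In these cells the summed level was 7116 CPM in control and 5731 to 10188 CPM in the treated libraries, so control lay inside the range of the others. In the remaining cells it was 1381 CPM in control and 310 to 474 CPM in the treated libraries. These cells were picked by the very UMIs that are compared, and the values are a description.

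**Figure D2:**
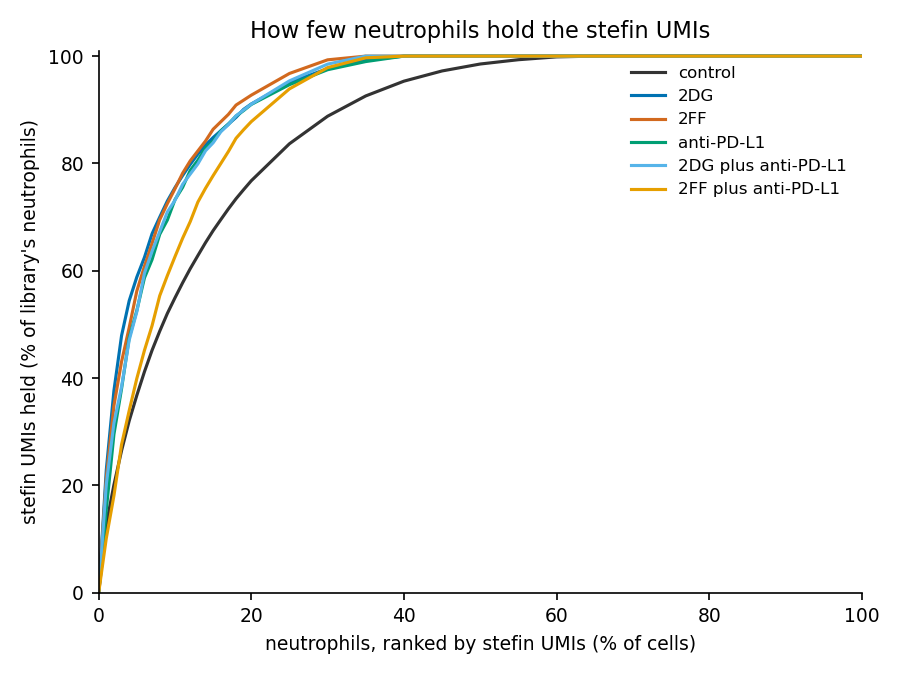
Share of a library's stefin UMIs in neutrophils (y axis, %) held by the neutrophils with the most stefin UMIs (x axis, % of cells), 1 line per library. At 5% of cells on the x axis, rounded to the nearest whole cell, the control line is the lowest, at 36.8%, and the 2DG line the highest, at 58.8%.

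Differences between libraries were then set beside those of all genes. They are log2 ratios of CPM + 5, taken for genes with at least 50 UMIs in both libraries together. The median over all genes was itself shifted against control, by 0.19 in 2DG, 0.18 in 2FF and 0.10 in anti-PD-L1, so the stefin ratios lie further down relative to the typical gene than the values below show. The summed stefins were lower than in control by 0.99 in 2DG (log2 interval of the CPM ratio -1.08 to -0.91), by 1.54 in 2FF (-1.65 to -1.45) and by 1.05 in anti-PD-L1 (-1.16 to -0.95). All 6 genes reached 50 UMIs over both libraries in these 3 comparisons, which share the control library and in which the members were chosen. Some reached it through control. Stfa3 had 202 UMIs in control, 8 in 2FF and 7 in anti-PD-L1, and BC100530 had 613, 14 and 19.

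In 2DG over control, 1 of the 6 members (Cstdc4, -1.23) was more than 2-fold lower, beside 6.12% of all 8546 genes; Stfa2 lay above control at 0.85 and Stfa3 at 0.55. In 2FF over control 3 of 6 were more than 2-fold lower, Cstdc4 at -1.73, BC100530 at -1.65 and Stfa2l1 at -1.33, beside 5.93% of 8562 genes, and all 6 ratios were negative. The BC100530 value rests on 14 UMIs in 2FF. In anti-PD-L1 over control 1 of 6 was more than 2-fold lower (Cstdc4, -1.34), beside 4.33% of 8447 genes, and Stfa1 lay above control at 0.56. Stfa2l1 missed the 2-fold line narrowly in 2DG (-0.94) and in anti-PD-L1 (-0.93). The median of the 6 members was -0.58, -1.08 and -0.70 in the 3 comparisons. After the shift of the median gene was taken off, 3 members were more than 2-fold lower in 2DG, 4 in 2FF and 2 in anti-PD-L1. That step lowers the ratios of all genes alike. The shares of all genes above were counted without it, so they are no background for these 3 counts.

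In the 4 comparisons run between treated libraries, the summed stefins differed by less than in those with control. Single 2FF and single 2DG were not compared with each other. Adding 2DG to anti-PD-L1 gave a log2 ratio of -0.00 (-0.15 to 0.14), and none of the 4 members with enough UMIs was past 2-fold in either direction, beside 4.57% of 3898 genes. Adding 2FF to anti-PD-L1 gave -0.34 (-0.48 to -0.20), with 1 of 3 members past 2-fold (Stfa1, -1.67), beside 3.5% of 4260 genes. Adding anti-PD-L1 to 2DG gave -0.06 (-0.20 to 0.07), with 2 of 5 past 2-fold (BC100530 at -1.29 and Stfa2 at -1.06), beside 3.67% of 4417 genes, and Stfa1 just under the line at 0.996. Adding anti-PD-L1 to 2FF gave 0.15 (0.02 to 0.29), with 0 of 3 past 2-fold, beside 3.53% of 4783 genes. The 2FF plus anti-PD-L1 ratio over anti-PD-L1 turned to 0.34 when neutrophils with any marker of another class were left out and to 0.05 without the 5% of cells with the most stefin UMIs. The members past 2-fold here, Stfa1, Stfa2 and BC100530, had at most 88 UMIs in each library.

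**Figure D3:**
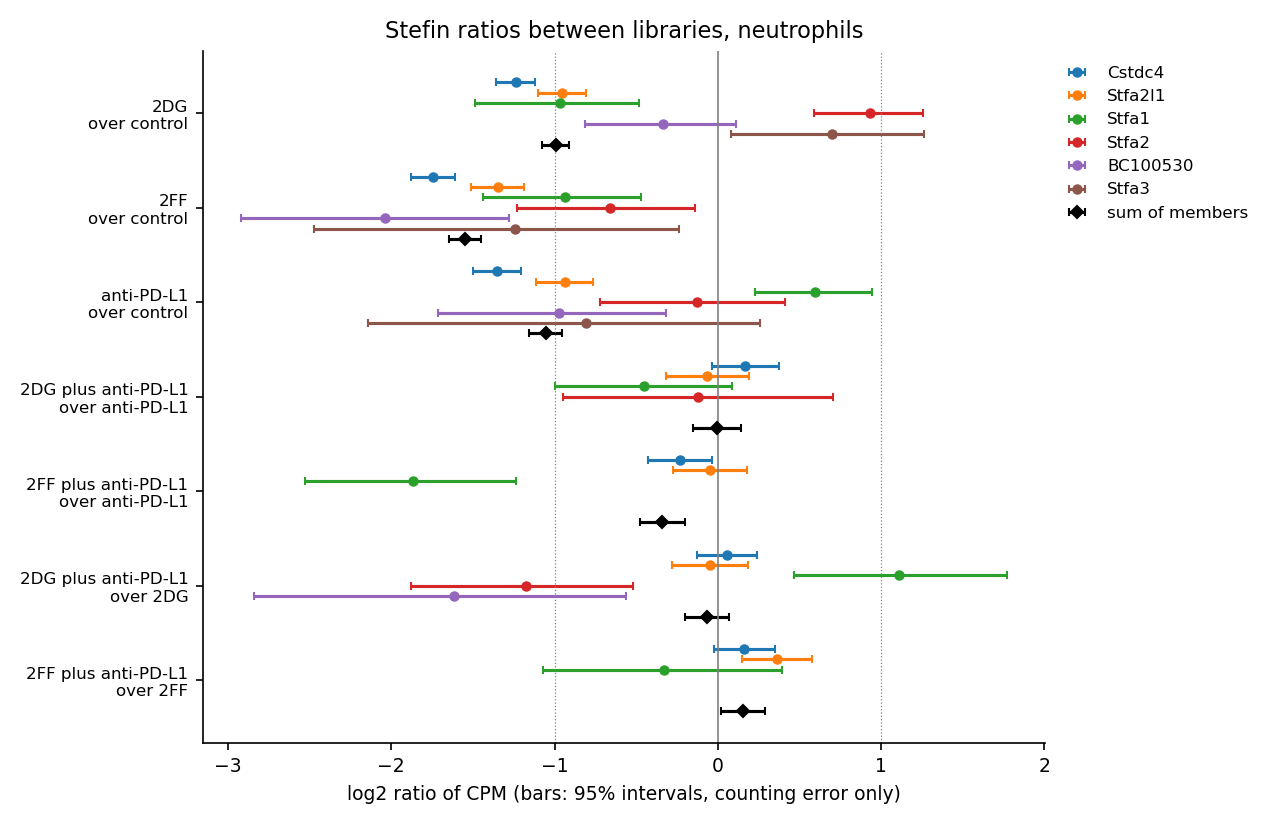
Log2 ratio of CPM (x axis, no value added; dotted lines mark 2-fold) for each stefin gene with at least 50 UMIs in both libraries and for their sum, in the 7 comparisons (y axis); bars are 95% intervals for counting error. The sum lies at CPM ratios of 0.342 to 0.503 in the 3 comparisons with control and of 0.790 to 1.11 in the others, which are plotted on the log2 axis.

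The 6 neutrophil markers followed other orders than the stefins, and each was lower than in control in some treated library. In 2FF these were S100a8, S100a9 and Retnlg. G0s2, at 3197 CPM in control, was lower in 2DG (2213), anti-PD-L1 (1984) and 2DG plus anti-PD-L1 (2174). It was higher in 2FF (3836) and 2FF plus anti-PD-L1 (3275). Retnlg, at 2853 CPM in control, was also lower in the combinations (1169 with 2DG, 2534 with 2FF). It was higher in 2DG (5765) and anti-PD-L1 (6269). S100a9, one chain of calprotectin, was at 25234 CPM in control neutrophils and at 43905 in 2DG, 18403 in 2FF, 41240 in anti-PD-L1, 26554 in 2DG plus anti-PD-L1 and 26383 in 2FF plus anti-PD-L1. Stefin UMIs for each S100a9 UMI were 0.0779 in control (0.0770 to 0.0789) and 0.0225 to 0.0365 in the treated libraries.

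Neutrophils held 69.3% to 79.4% of the stefin UMIs of the kept cells of a library. Cells that met several classes held 6.29% to 27.2%, cells that met none 1.19% to 9.13%, and the other classes 1.63% to 8.87%. In these other classes the summed stefins were far below the neutrophil level. Single members near the floor could differ: Stfa3 in 2DG plus anti-PD-L1 was at 0.470 CPM in T cells and 1.28 CPM in neutrophils. In the 5 treated libraries T cells had 0.0801 to 0.671 CPM of the summed stefins and 1 to 5 cells with a UMI among 1571 to 2634, NK cells had none, and B cells had none in 3 libraries. In B cells of 2DG plus anti-PD-L1 the level was 9.44 CPM, of which all 21 UMIs came from 2 of 395 cells. Monocytes had 0.229 to 2.72 CPM and macrophages 0.819 to 2.28 CPM. The control library had the highest share of cells with a stefin UMI in each class but NK cells. There a stefin UMI was found in 3.31% of T cells, 4.77% of monocytes, 5.63% of macrophages and 5.09% of dendritic cells, at 4.87, 20.9, 11.4 and 3.62 CPM. Median depths were 6173 UMIs for control T cells and 9907 for control monocytes, above the 3742 of the neutrophils. The T cell level was 0.248% of the neutrophil level in control and 0.0107% to 0.0710% of it in the treated libraries. The part of free RNA in it was not tested.

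The ratio of stefin to S100a9 UMIs differed between the classes of the control library. It was 0.0930 (0.0468 to 0.168) in T cells, an interval that holds the 0.0779 of the neutrophils. In macrophages it was 0.221 (0.188 to 0.260) and in monocytes 0.384 (0.340 to 0.433), where Cstdc4 gave 344 of the 378 stefin UMIs and 10 cells held 70.6% of them. S100a9 is also a marker of the neutrophil gate. Monocytes and macrophages that met the neutrophil rule as well were set aside, which affects the S100a9 UMIs left in these classes. The part of this gate, of free RNA and of doublets with neutrophils in these values was not tested.

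**Figure D4:**
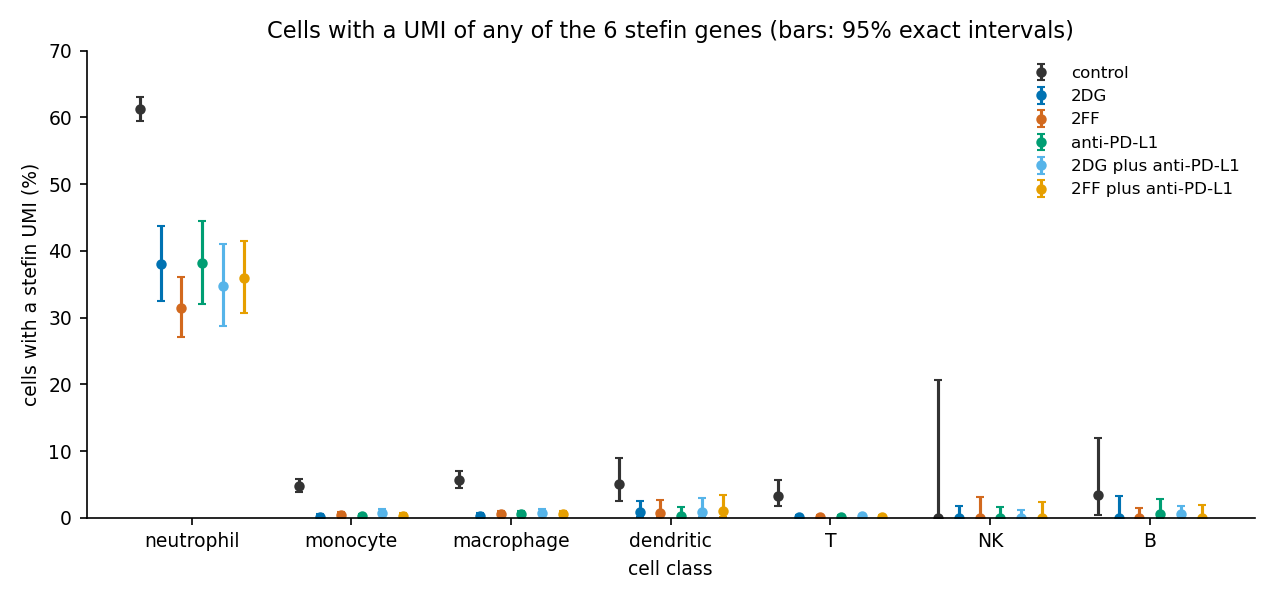
Share of cells with a UMI of any of the 6 stefin genes (y axis, %) by cell class (x axis) and library (color); bars are 95% Clopper-Pearson intervals. Neutrophils lie between 31.5% and 61.3%, and the other classes at or under 5.63%, with the control library highest in each class but NK cells.

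Within neutrophils, Stfa2l1 and Cstdc4 went together cell by cell. Pearson's r of their log-scaled UMIs was 0.43 to 0.57 over the cells of each of the 6 libraries. In control 71.7% of the 1260 cells with Stfa2l1 also had Cstdc4, against 29.4% of the 1605 cells without it. These cells share a library and differ in depth, so r is a description. Among the low members the highest control values were r = 0.52 for Stfa2 with BC100530 and 0.45 for Stfa3 with BC100530, and 5 control cells had UMIs of all 6 members. Stfa2 and Stfa2l1, the pair with the second most alike coding sequences, had r = 0.16 in control. So did Cstdc4 with BC100530 (0.16), whereas Stfa1 with BC100530, the most alike pair, had 0.35.

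Summed, the low and the high members differed in how they followed granule genes. Secondary and tertiary granule genes (Ltf, Camp, Ngp, Lcn2, Chil3, Mmp8 and Cd177) are made late in the bone marrow as neutrophils mature. In control neutrophils with a UMI of this list (2031 cells), Stfa1, Stfa2, Stfa3 and BC100530 summed to 179 CPM, against 64.4 CPM in the 834 cells without one. The corresponding values were 217 and 57.1 CPM in 2DG, 148 and 9.80 in 2FF, 192 and 91.5 in anti-PD-L1, 195 and 18.5 in 2DG plus anti-PD-L1 and 42.0 and 25.1 in 2FF plus anti-PD-L1. These sums were higher in the cells with a granule UMI in 6 of 6 libraries, by 1.67 to 15.1 times. They rest on a handful of cells in each treated library, and single members did not all follow. In 2FF plus anti-PD-L1 Stfa1 was at 23.2 CPM with and 25.1 CPM without a granule UMI. Stfa3 had no UMI in either part. Stfa2l1 and Cstdc4 together were higher in the cells with a granule UMI in 3 of 6 libraries, at 0.717 to 1.44 times the level in the other cells. Cstdc4 alone was higher in these cells in 2FF only (411 against 303 CPM) and lower in every other library. Stfa2l1 went the opposite way to Cstdc4 in control (656 against 562 CPM) and in 2DG plus anti-PD-L1 (452 against 177 CPM). Cstdc4 was at 1160 against 1231 and at 419 against 623 CPM there. Cells with a granule UMI were deeper in each library, with medians of 2738.5 to 4052 UMIs against 2380.5 to 3195.5. The part of depth was not tested.

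**Figure D5:**
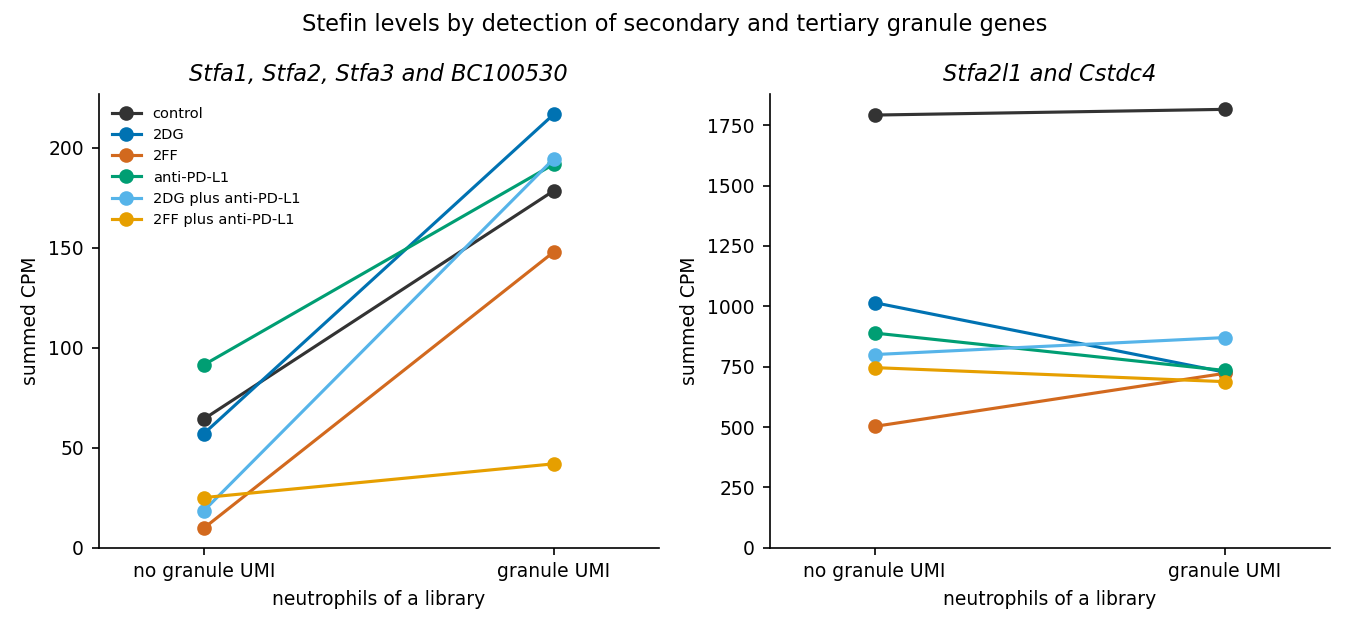
Summed CPM (y axes, starting at 0) of the 4 low members (left) and of Stfa2l1 and Cstdc4 (right) in neutrophils without and with a UMI of the secondary and tertiary granule list; each line is 1 library. On the left every line rises, to between 42.0 and 217 CPM, and on the right 3 of 6 do. The sums on the left rest on few cells in the treated libraries.

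Primary granule genes (Elane, Mpo, Prtn3, Ctsg and Ms4a3), which mark the early promyelocyte stage, were rare. In cells with a UMI of them, the list was at 310 CPM in control and 11692 CPM in 2DG. It was at 233 to 680 CPM in such cells of the other treated libraries. A UMI of the list thus did not pick like cells in each library. In the 45 control neutrophils with such a UMI, the low members were at 1858 CPM against 115 CPM in the other 2820 cells. BC100530 was at 630 against 30.7 CPM there and Stfa1 at 627 against 44.4. In control Cstdc4 was nearly the same in both, at 1178 and 1175 CPM. The treated libraries had 8 to 13 such cells each, in which the low members lay above the other cells in anti-PD-L1 alone (393 against 134 CPM) and below them in the other 4. In 2DG, where the list was highest, the low members were at 24.4 CPM in such cells and 183 CPM in the others. Stfa2l1 and Cstdc4 together were lower in such cells in each treated library, at 0.0256 to 0.612 times the level in the others. Cstdc4 had no UMI in them in 2FF and in 2FF plus anti-PD-L1.

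Stefins were also compared along other neutrophil states, by ranking the cells of a library by their share of UMIs from a gene list and cutting them into 4 equal parts. With genes of tumor-exposed and aged neutrophils (Cxcr4, Siglecf, Cd274, Ccl3, Ccl4, Cxcl2, Il1b, Icam1 and Vegfa), summed stefins were higher in the top than in the bottom part in 6 of 6 libraries, from 1.36 times in control (2210 against 1625 CPM) to 4.73 times in 2DG plus anti-PD-L1 (1410 against 298 CPM). The sum was mostly Stfa2l1 and Cstdc4, each higher in the top part in 6 of 6 libraries. In control the low members went the other way. Stfa1 was at 32.2 CPM in the top and 125 CPM in the bottom part, and Stfa2 at 23.7 and 90.4. Stfa3 was at 4.68 and 52.2 CPM and BC100530 at 7.16 and 129. In the treated libraries the low members rested on few cells. There BC100530 was lower in the top part of each library, at 0 to 13.5 CPM against 2.14 to 52.4. Stfa1, Stfa2 and Stfa3 each had no common direction there. For S100a8 and S100a9 the summed stefins were again higher in the top part, from 1.46 to 7.49 times in 6 of 6 libraries. For interferon-induced genes the top part was higher in 5 of 6, and for total UMIs in 3 of 6. With genes of mature neutrophils (Mmp9, Cxcr2, Csf3r and Il1r2, a list set after values were seen) the top part was higher in 1 of 6 libraries, at 0.423 to 1.64 times the bottom part.

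The genes most like the summed stefins were named by correlation. Over 41 sums of a class in a library (6 of them neutrophils), they were Il1f9, S100a9, Gm20406, Cxcr2, Lcn2, S100a8, Slc40a1, Steap4, Mirt2 and Rufy4, with r from 0.99 to 0.98, among 17001 genes. These sums mainly set neutrophils against other classes, and the members were chosen by their UMIs in neutrophils. A gene largely confined to neutrophils therefore reaches a high r, which does not show likeness between libraries. S100a8, S100a9 and Cxcr2 also served to call the neutrophils. In all 10 the highest value outside neutrophils was below the lowest inside: Il1f9, which encodes the cytokine IL-36 gamma, ran from 387 to 673 CPM in neutrophils and reached 4.60 CPM elsewhere. Over the 2865 control neutrophils and 5201 genes, they were Fam162a (r = 0.33), Csta2 (0.32), Cxcl3 (0.20), Dach1 (0.19), Ccl6 (0.18), Gapdh (0.17), Cxcl2, Wfdc21, Fmnl2 and Upp1 (0.16 each). Csta2 is a stefin A copy, and its coding sequence matched that of Cstdc4 at 285 of 294 bases. In the other 5 libraries, which did not choose these genes, Fam162a had r of 0.19 to 0.32, Csta2 of 0.22 to 0.37, Ccl6 of 0.13 to 0.26 and Cxcl3 of 0.11 to 0.22, and 8 of the 10 were above 0 in all 5. Dach1 and Gapdh were above 0 in 4 of them. Gapdh reached 0.24, in anti-PD-L1, and the remaining 5 genes at most 0.19.

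Of 16 listed relatives of the stefins, 4 had at least 50 UMIs in neutrophils. Cstb, the stefin B gene, was at 850 CPM in control and at 228 to 440 CPM in the treated libraries, with log2 ratios over control of -1.87 in 2DG, -1.25 in 2FF and -1.69 in anti-PD-L1. Csta2 was at 81.3 CPM in control, 66.7 in 2DG and 19.2 to 26.4 in the other 4, with -1.56 when anti-PD-L1 was added to 2DG. Csta3, named here after its values were seen, was at 18.8 CPM in control and at 8.24 to 14.4 in the others. Cst3, the secreted cystatin C, went the other way, from 255 CPM in control to 474 to 849 CPM, with ratios of 1.14, 1.72 and 1.10. Against control, 1 of the 4 relatives was thus more than 2-fold higher in each comparison, and 1, 2 and 2 were lower in 2DG, 2FF and anti-PD-L1. Of all genes, 9.02%, 9.31% and 6.98% were higher and 6.12%, 5.93% and 4.33% lower in the same order. The part of free RNA from other classes in the levels of Cst3 and the other relatives was not tested.

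Cysteine proteases did not share 1 direction. Of 11 on the list, cathepsins and legumain, 9 had at least 50 UMIs and 8 enough in the comparisons with control. In 2DG, 2FF and anti-PD-L1, 0, 1 and 1 were more than 2-fold higher, beside 9.02%, 9.31% and 6.98% of all genes. Those more than 2-fold lower were 3, 2 and 2, beside 6.12%, 5.93% and 4.33% of all genes. Ctsl, cathepsin L, was at 334 CPM in control and at 73.7 to 167 CPM in the treated libraries, and Ctsk, cathepsin K, at 32.1 CPM against 0 to 3.88. Ctsb, cathepsin B, the most abundant in control at 845 CPM, was at 321 CPM in 2DG (-1.38) and at 467 to 594 CPM in the other 4. Ctss, cathepsin S, was higher than in control throughout, at 136 CPM there and 258 to 543 CPM in the treated libraries, with 1.96 in 2FF. For the proteases, too, the part of free RNA from other classes was not tested. Ctsz, cathepsin Z, stayed between 261 and 356 CPM in all 6. Among the comparisons of treated libraries, Ctsl in 2FF plus anti-PD-L1 over 2FF (1.12) was the 1 protease past 2-fold, beside 3.53% of all genes there.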

How the data were processed

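Single cells of 6 libraries, 1 mouse each, were measured with droplet 3′ RNA sequencing (10x Genomics 3′ version 3.1 chemistry). The deposited values are UMI counts per gene and cell, which the authors made with Cell Ranger on mm10. The submitters' processing notes name version 3.1.0 and the header of the deposited counts names 7.0.0. Samples were grouped by their GEO labels. The members, lists and settings were chosen with earlier results of these data known.

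Cells with at least 250 genes and at most 5% mitochondrial UMIs were kept. A neutrophil had at least 3 of 6 markers and fewer than 2 markers of any other class. Cells that met 2 classes were set aside as ambiguous (631 to 1283 per library), cells that met none stayed unnamed (807 to 1286), and no doublet caller was run. Neutrophils held 779366 to 13724403 UMIs per library. UMIs were summed per gene, class and library and divided by all UMIs of that class to give CPM. Ratios were log2 of CPM + 5, for genes with at least 50 UMIs over both libraries, and the line was 2-fold. Each sum carries an exact 95% Poisson interval, each share a Clopper-Pearson interval and each ratio an exact conditional binomial one. A count of 0 was given the limit of 3 UMIs. Thinning to 500 UMIs was the exact hypergeometric expectation per cell. With 1 library per group no test of a difference was run.

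Named genes were the members, the 3 relatives and 3 proteases with the highest control CPM and the 2 with the largest ratios in either direction of each list, and the 10 genes with the highest Pearson correlation with the summed members, over class sums (at least 50 cells each) and over control neutrophils (cells scaled to 10000 UMIs, genes found in at least 5% of cells). Sequences came from the GENCODE M21 annotation with its genome and from RefSeq promoters (GRCm38.p6). The summing and the ratios were tested on simulated counts. Python 3.11.15, NumPy 2.4.6, SciPy 1.17.1 and pandas 2.3.3 were used. The alternatives were other marker gates, cell filters, depths, added values, UMI minimums and centring. The result of 1 further list of neutrophil genes is not reported here.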

Additional observations from a re-analysis of the deposited data

Results flagged for a closer look

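Anti-PD-L1 over control and 2FF plus anti-PD-L1 over 2FF had ratios of opposite sign. Summed stefins had a log2 ratio of -1.05 in the first and of 0.15 (0.02 to 0.29) in the second, and Stfa2l1 had -0.93 and 0.36. In 2DG plus anti-PD-L1 over 2DG, also without 2FF, the sum had -0.06 (-0.20 to 0.07) and Stfa2l1 -0.05. The control library lay above all treated ones for the sum and for Stfa2l1. Each value compares 1 library with 1 library, and the differences between these values were not tested.

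Cells outside the reported classes also held stefin UMIs above the level of T cells in the same library. In cells that met no marker rule the summed stefins were at 264 CPM in control, 21.8 in 2DG, 7.24 in 2FF, 17.4 in anti-PD-L1, 17.1 in 2DG plus anti-PD-L1 and 3.65 in 2FF plus anti-PD-L1. In cells that met 2 rules they were at 544, 25.1, 15.8, 14.2, 7.51 and 39.2 CPM in the same order. In control, the 276 cells without a class that had 2 of the 6 neutrophil markers were at 865 CPM, and those with none were at 35.3 CPM. Among the control cells that met 2 rules, the 1134 with 3 or more neutrophil markers held 7668 of 7690 stefin UMIs. They were at 611 CPM, and the others at 2.12 to 18.6 CPM. In the treated libraries the cells that met 2 rules and had 3 or more neutrophil markers were at 114 to 345 CPM.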

How the results depend on the processing

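No paired analysis was possible because each group was 1 library, so no replicate could be left out either, and depth and cell number limit the low members most. Across 12 alternatives the summed stefins stayed below control, at log2 ratios of -1.70 to -0.86 in 2DG, -2.14 to -1.31 in 2FF and -1.59 to -0.99 in anti-PD-L1. Ratios between treated libraries were less stable. One alternative, leaving out the 5% of neutrophils with the most stefin UMIs in each library, was chosen after seeing the data. Of 84 summed ratios under the alternatives 60 stayed within the counting interval of the reported value, as did 37 of 48 shares, and 61 of 84 counts of members stayed within 1.5 times the reported count. The cause of the shifts below was not tested.

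With at least 4 of the 6 markers the summed ratio of 2DG over control was -1.11. With 2 of Csf3r, Cxcr2, G0s2 and Retnlg it was -1.24, that of 2FF -1.66 and that of anti-PD-L1 -1.23, and adding 2DG to anti-PD-L1 gave -0.17. With cells that also met another class kept, 2FF over control was -1.68 and 2FF plus anti-PD-L1 over 2FF 0.46. With any marker of another class left out, anti-PD-L1 over control was -1.25, adding 2DG to anti-PD-L1 gave 0.51 and adding 2FF to it 0.34 (a change of sign), and adding anti-PD-L1 gave 0.27 on top of 2DG and 0.70 on top of 2FF. Thinned to 500 UMIs, the ratios over control were -0.86 in 2DG and -1.31 in 2FF, and adding 2DG or 2FF to anti-PD-L1 gave 0.17 and -0.076. Centred on the median of all genes, they were -1.18 in 2DG and -1.72 in 2FF. Without the top 5% of cells, the 3 ratios over control were -1.70, -2.14 and -1.59, adding 2FF to anti-PD-L1 gave 0.055 (a change of sign), and adding anti-PD-L1 gave 0.093 on top of 2DG and 0.61 on top of 2FF.

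The number of members past 2-fold in 2DG over control (1) became 2 without S100 genes in the gate, 3 with 4 markers, with any other marker left out and with centring, and 4 without the top 5%. In 2FF over control (3) it became 5 with any other marker left out and without the top 5%. In anti-PD-L1 over control (1) it became 2 without S100 genes, with double-class cells kept, with any other marker left out, with centring and without the top 5%. With 2FF added to anti-PD-L1 (1) it became 0 with any other marker left out, thinned or without the top 5%, and 3 with at least 10 UMIs. In 2DG plus anti-PD-L1 over 2DG (2) it became 1 with 4 markers, without S100 genes and with double-class cells kept, and 0 with any other marker left out, thinned or without the top 5%. In 2FF plus anti-PD-L1 over 2FF (0) it became 1 with at least 10 UMIs. The share of all genes past 2-fold under these settings is not given, so these counts have no background beside them.

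The share of neutrophils with a stefin UMI in control (61.3%) was 63.5% with 4 markers, 57.0% with double-class cells kept, 57.1% with any other marker left out and 59.3% without the top 5%, and in anti-PD-L1 it was 30.2% with any other marker left out. Thinned to 500 UMIs, the 6 shares were 36.9% in control, 20.2% in 2DG, 16.5% in 2FF, 20.3% in anti-PD-L1, 20.5% in 2DG plus anti-PD-L1 and 21.1% in 2FF plus anti-PD-L1.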
